A study of Rattus norvegicus with 24 samples.

Results

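Cytochrome P450 enzymes are haem proteins that oxidise steroids, sterols, vitamins, fatty acids and foreign compounds. In rats several of them differ between the sexes in liver through growth hormone and sex steroids, while others are known mainly from the adrenal cortex, skin, kidney or brain. The genes described here were all those on the array with a symbol of the form Cyp followed by a digit, except Cyp51, Cyp11a1, Cyp17a1 and Cyp19a1, whose probe was well above background on 3 or more arrays of at least 1 tissue. The rule held for 39 of 59 probes and for 37 of 51 genes, out of 8945 named genes on the array. Of these 37 members, 20 belonged to families CYP1 to CYP3, which mainly oxidise foreign compounds and steroids, 8 to family CYP4, which hydroxylates fatty acids and eicosanoids, 8 to the families of sterol, steroid, vitamin D and retinoid metabolism, and 1 (Cyp20a1) to none of these.

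The study asked how dihydrotestosterone (DHT), the most potent natural androgen, changed gene expression in 4 tissues of Sprague-Dawley rats of 12 weeks. Prostate, skin and forebrain came from males that had been castrated 3 days earlier and were then given 1 dose of DHT (10 mg/kg, intraperitoneal) or vehicle. Ovary came from intact females that received the same dose or vehicle. All tissues were taken 16 h after the dose, and each of the 8 groups had 3 one-colour Agilent arrays. The vehicle males thus had lost their testicular androgen, while the ovaries of the vehicle females were in place. The short series text speaks of castrated males for every tissue, and the sample labels were followed. The authors excluded the last vehicle array of forebrain on quality grounds, and it was left out here too, which leaves 23 arrays and 2 vehicle arrays in forebrain. The series text calls the arrays of a group biological replicates, but no label names the animals, so that a p-value here reflects only how far these arrays varied. Ovary differs from the other tissues in sex and gonadal state as well as in organ, and these cannot be told apart.

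Levels are given as log2 of the processed spot intensity minus the 75th percentile of its array, so that 0 marks a spot as bright as that percentile. They are compared between samples for 1 probe and never between probes. On the 23 arrays, 54.5% to 96.8% of probes were well above background. Ovary vehicle arrays 1 and 3 stood apart, with 96.4% and 96.8% of probes well above background and an interquartile range of the log2 signal of 3.78 and 3.20, against 4.99 to 6.82 on the other 21 arrays. Each of 6 slides carried 1 array of every tissue and a single treatment, so that treatment and slide cannot be told apart within a tissue. Of marker lists for the labelled tissues, 6 of 7 prostate epithelium markers on the array were testable in prostate and 7 of 7 granulosa, theca and luteal markers in ovary. In skin 4 of 4 keratinocyte markers were testable, and in forebrain 7 of 7 neuron markers. Being testable does not tell tissues apart, since 6 of 7 granulosa, theca and luteal markers were so in prostate, and 6 of 7 neuron markers in ovary. The summed levels of these 2 lists on vehicle arrays did differ. The first summed to 293 to 386 times the 75th percentile in ovary and 0.63 to 0.66 in prostate. The second summed to 87.2 to 101 in forebrain and 0.16 to 0.90 in ovary. Probe sequences were not in the files used here, so that signal shared between near-identical family members (such as Cyp11b1, Cyp11b2 and Cyp11b3, or the CYP2D, CYP2C and CYP4A forms) cannot be told apart.

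Of the 14 genes without a passing probe, most are known chiefly from liver. Among these are Cyp7a1, the rate-limiting enzyme of bile acid synthesis, and the hepatic steroid hydroxylases Cyp2c12, Cyp2c13, Cyp3a2 and Cyp3a18. Cyp21a1, Cyp24a1 and Cyp4x1, which are not chiefly liver genes, had no passing probe either. Just outside the threshold, the brighter Cyp24a1 probe was well above background on 2 ovary arrays (vehicle, -3.07 and -2.35). Just inside it, Cyp2a1 was well above background on 3 ovary arrays, at -4.41 and -3.66 with vehicle and -4.82 with DHT. Cyp1a2, Cyp2a1 and Cyp2a2 passed through ovary alone. Without ovary vehicle arrays 1 and 3, 3 of the 39 probes would not have passed.

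In prostate, DHT lowered Cyp3a9 and Cyp11b1 and raised Cyp4a8 and Cyp27a1. Of the 23 members tested there, 2 were higher and 2 lower (limma, adjusted p under 0.05), where 5.11% of all 25277 features tested were higher and 4.58% lower. Cyp3a9, a CYP3A enzyme that oxidises steroids and drugs, stood at -2.26, -2.61 and -1.65 on the vehicle arrays and at -5.26, -6.04 and -4.84 on the DHT arrays. The groups did not overlap, and DHT array 2 was not well above background. As the vehicle arrays alone were enough to meet the filter, the filter favours a lower value with DHT. The difference was -3.21 ± 0.38 (log2, standard error), a 9.25-fold lower level (limma, adjusted p = 0.00740). It passed under each of the 14 alternative settings that gave a value, with log2 differences of -3.48 to -1.61 and a largest adjusted p of 0.0493. Without a filter on dim probes the adjusted p was 0.0309 (limma).

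Cyp4a8, a fatty acid hydroxylase of the CYP4A subfamily, stood at -6.97, -6.36 and -4.53 on the vehicle arrays and at -2.32, -2.88 and -2.20 on the DHT arrays. The groups did not overlap, but vehicle arrays 1 and 2 were not well above background, so that the vehicle level is known from 1 array. The DHT arrays alone were enough to meet the filter, which favours a higher value with DHT. The fitted difference was 3.49 ± 0.61, an 11.2-fold higher level (limma, adjusted p = 0.0215). The call was lost in 8 of 14 alternatives. It was 1.11 with background corrected by the normexp method (adjusted p = 0.384), and without vehicle array 1, vehicle array 2, DHT array 1, DHT array 2 or DHT array 3 the adjusted p was 0.0562, 0.0730, 0.0663, 0.0671 and 0.0664, with differences of 2.98 to 3.70.

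Cyp27a1, the mitochondrial sterol hydroxylase of bile acid and oxysterol synthesis, was bright on every prostate array. It measured 3.09, 2.92 and 3.47 with vehicle and 4.16, 4.34 and 4.25 with DHT, with no overlap. The difference was 1.09 ± 0.19, a 2.12-fold higher level (limma, adjusted p = 0.0202). It kept its size in all alternatives (0.97 to 1.24) and passed in 7 of 15. Without vehicle array 1, vehicle array 2, DHT array 2 or DHT array 3 the adjusted p was 0.0749, 0.0725, 0.0853 and 0.0644.

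Cyp11b1, the enzyme of the last step of corticosterone synthesis in the adrenal cortex, measured -4.26, -4.47 and -4.21 with vehicle and -5.46, -6.26 and -7.22 with DHT. All 3 vehicle arrays and 1 of 3 DHT arrays were well above background, and the groups did not overlap. The vehicle arrays alone were enough to meet the filter, which favours a lower value with DHT. The fitted difference was -2.0 ± 0.42, a 4.00-fold lower level (limma, adjusted p = 0.0355), with DHT arrays 2 and 3 not well above background. It passed in 5 of 14 alternatives, and was -0.81 under normexp (adjusted p = 0.502). Without vehicle array 1, vehicle array 2, vehicle array 3 or DHT array 2 the adjusted p was 0.104, 0.0922, 0.0577 and 0.110.

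**Figure D1:**
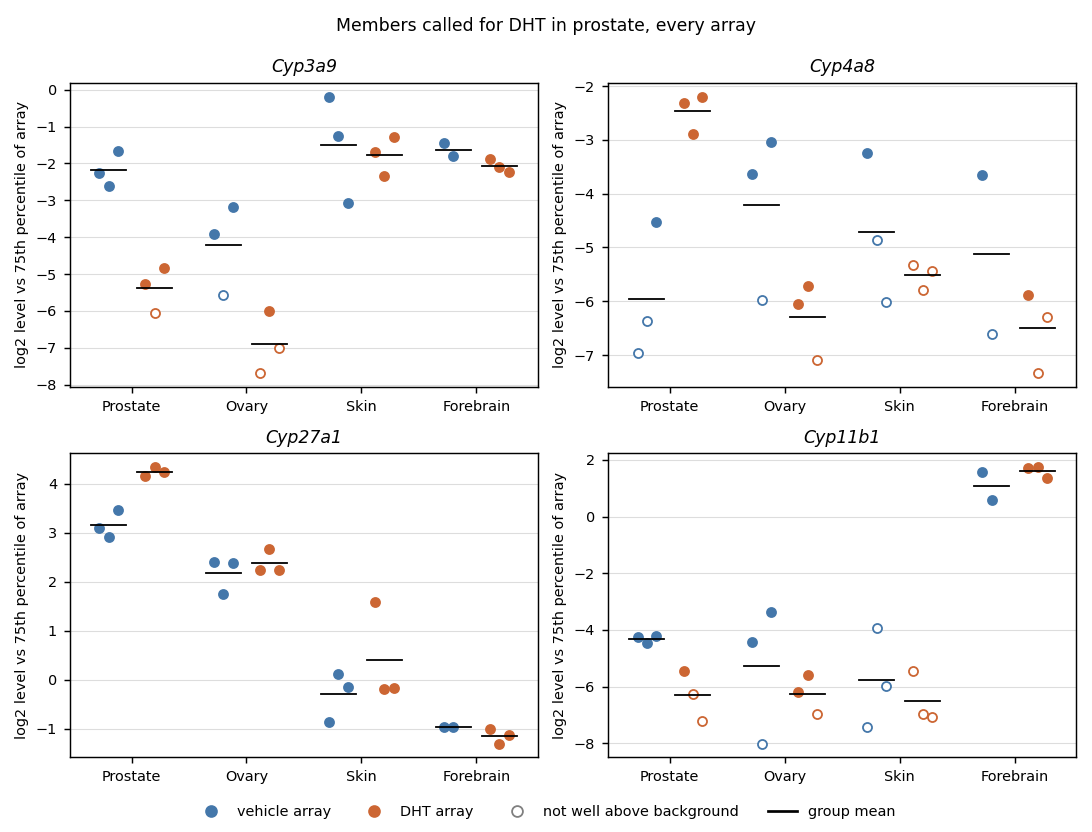
Level of Cyp3a9, Cyp4a8, Cyp27a1 and Cyp11b1 (vertical axis, log2 relative to the 75th percentile of the array) on each vehicle and DHT array of the 4 tissues, with open points not well above background and bars at group means. In prostate the 3 vehicle and 3 DHT points do not overlap for any of the 4 genes, and Cyp11b1 is high in forebrain in both groups.

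The promoters of Cyp3a9, Cyp4a8 and Cyp27a1 in the RefSeq table of assembly GRCr8, from 250 bases before to 50 bases after the start of the gene, are shown because these genes moved in opposite directions with an androgen. Capitals mark TGTTCT, the core of the element that the androgen receptor binds, searched on both strands (its reverse reads AGAACA). The Cyp3a9 promoter (minus strand, chr12:21960111-21960410) held 1 match, which starts 50 bases before the start of the gene, and those of Cyp4a8 (minus strand, chr5:133970177-133970476) and Cyp27a1 (plus strand, chr9:83713282-83713581) held none in these 300 bases.
Cyp3a9: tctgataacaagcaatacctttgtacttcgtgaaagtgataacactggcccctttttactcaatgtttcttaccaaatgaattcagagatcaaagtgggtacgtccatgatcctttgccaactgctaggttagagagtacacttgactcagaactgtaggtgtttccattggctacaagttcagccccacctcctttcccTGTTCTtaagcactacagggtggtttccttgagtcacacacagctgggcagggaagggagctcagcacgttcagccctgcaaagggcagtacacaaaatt
Cyp4a8: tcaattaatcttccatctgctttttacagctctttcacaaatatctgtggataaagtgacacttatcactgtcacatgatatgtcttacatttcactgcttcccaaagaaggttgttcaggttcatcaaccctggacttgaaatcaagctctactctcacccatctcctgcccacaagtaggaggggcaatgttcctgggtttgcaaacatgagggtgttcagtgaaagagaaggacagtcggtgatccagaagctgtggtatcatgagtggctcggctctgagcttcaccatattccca
Cyp27a1: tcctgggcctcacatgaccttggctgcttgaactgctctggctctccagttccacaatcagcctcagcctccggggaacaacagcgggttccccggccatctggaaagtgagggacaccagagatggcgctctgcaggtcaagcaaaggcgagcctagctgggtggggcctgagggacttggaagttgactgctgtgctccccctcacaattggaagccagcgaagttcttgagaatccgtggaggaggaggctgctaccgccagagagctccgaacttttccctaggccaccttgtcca
Of 33469 promoters of this length, 6923 (20.7%) held the motif, as did 9 of the 30 members with an entry. A match describes the letters only, and whether the receptor binds there was not measured.

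By family, the prostate members (those above included) differed in the sign of their values but few differences passed. Over all features, 13936 of 25277 had a positive difference. All 6 CYP4 members tested had a positive difference, with a median of 0.46, against 0.06 over all features, and only Cyp4a8 passed. The same 6 were 4 of 6 positive under normexp and 5 of 6 without vehicle array 1. Cyp4a2, a fatty acid hydroxylase like Cyp4a8, measured -3.89, -4.08 and -2.68 with vehicle and -2.53, -2.78 and -2.81 with DHT (0.85 ± 0.37, limma adjusted p = 0.203). Of 11 members of CYP1 to CYP3, 3 had a positive difference (5 after quantile normalization and 2 under normexp), the median was -0.50, and only Cyp3a9 passed. The arachidonate epoxygenases Cyp2j4 and Cyp2j3 were in this group. Cyp2j4 measured 0.91, 1.10 and 0.49 with vehicle and 0.42, 0.15 and -0.04 with DHT, with no overlap (-0.66 ± 0.22, limma adjusted p = 0.112).

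Cyp2j3 is measured by a pair of probes that differ. The brighter one gave -1.16, -0.87 and -2.14 with vehicle and -2.20, -2.32 and -2.40 with DHT (-0.92 ± 0.33, limma adjusted p = 0.133). The dimmer one gave -4.80, -4.21 and -4.36 with vehicle and was not well above background on any DHT array, a level at least 1.68-fold lower with DHT (fitted difference -2.28 ± 0.27, limma adjusted p = 0.00732 with every probe as a feature). That probe met the filter through the vehicle arrays alone, which favours a lower value with DHT, so that its p supports nothing by itself. At an unadjusted p under 0.05, 9 of 23 prostate members differed, 3 higher and 6 lower, against 27.6% of all features.

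Adipocyte markers moved in the same prostate arrays. Of 7 tested, 5 rose with DHT (Adipoq, Fabp4, Cidec, Cfd and Cd36), and the median difference over the 7 was 1.27. Their summed level was 66.9 to 77.6 times the 75th percentile on vehicle arrays and 134 to 233 times on DHT arrays. Lep was not well above background on any prostate array. Of 6 prostate epithelium markers tested, the androgen-dependent probasin gene Pbsn rose by 5.85 ± 0.31 and the luminal keratin Krt8 fell by 0.99 (limma, adjusted p = 0.00291 and 0.0380), and their summed level was 328 to 649 with vehicle and 88.4 to 1045 with DHT. The part of fat or epithelial cells in the member values was not tested, and in whole tissue fewer cells of a type and less RNA per cell cannot be told apart. Hepatocyte markers were near background in prostate, with 3 of 8 testable, a summed level of 0.23 to 0.71 with vehicle and 0.40 to 0.55 with DHT and Apoh and Tat at background throughout. Of these, Serpina1 fell by 1.29 (limma, adjusted p = 0.0167).

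Genes that work with P450 enzymes were called in prostate in numbers from 0 of 3 to 4 of 14 a list, where 9.69% of all features were called in either direction. Of 10 electron donor and haem genes tested in prostate, 1 fell: Hmox1, which breaks down haem (-1.45 ± 0.17, limma adjusted p = 0.00752). Por, the reductase that feeds electrons to microsomal P450s, differed by 0.58 ± 0.19 (limma adjusted p = 0.108). Of 14 receptors that regulate P450 genes, 2 rose and 2 fell. Pparg, a master regulator of fat cells, rose by 1.16 and Rxrg, a partner of many nuclear receptors, rose too (limma, adjusted p = 0.0337 and 0.0210), while Ppard fell by 1.31 and the retinoic acid receptor Rara fell by 0.70 (adjusted p = 0.0238 and 0.0456). Of 12 arachidonate and epoxide enzymes, 2 fell: the epoxide hydrolase Ephx1 (-0.79 ± 0.16, limma adjusted p = 0.0325) and the prostaglandin E synthase Ptges (-1.51 ± 0.32, adjusted p = 0.0352). Of 10 retinoid handling genes 1 fell, the retinol dehydrogenase Rdh11 (-0.70 ± 0.17, just inside the limma threshold), and of 3 aryl hydrocarbon receptor targets outside the family none passed (limma, smallest adjusted p = 0.531). In ovary, skin and forebrain no gene of these lists passed.

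In ovary no member passed (0 of 32, with 0% of 31271 features higher and 0% lower), and 5 members had an unadjusted p under 0.05, against 10.6% of all features. All 5 had lower values with DHT: Cyp1a2, Cyp3a9, Cyp11b3, Cyp4a8 and Cyp11b2. Of the 3312 features in all with such a p, 3234 were lower and 78 higher, so that this direction is not particular to the members. Cyp3a9 measured -3.92, -5.57 and -3.17 with vehicle and -7.69, -6.01 and -6.99 with DHT, with no overlap and with 2 of 3 vehicle and 1 of 3 DHT arrays well above background (-2.68 ± 0.72, limma adjusted p = 0.403). Cyp4a8, which rose in prostate, measured -3.64, -5.98 and -3.03 with vehicle and -6.04, -5.71 and -7.10 with DHT (-2.07 ± 0.82, limma adjusted p = 0.470), and the groups overlapped.

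Cyp1a2, an oxidase of aromatic amines induced through the aryl hydrocarbon receptor, measured -3.36, -5.00 and -2.83 in vehicle ovaries. It was not well above background on any DHT array. On this scale its level was at least 4.86-fold lower with DHT (fitted difference -4.52 ± 0.74, limma adjusted p = 0.136). It met the filter in ovary through the vehicle arrays alone, which favours a lower value with DHT. Over the alternatives that gave a value the fitted difference ran from -5.11 to -1.33. A second Cyp1a2 probe was well above background on 1 ovary array alone, a DHT array. The corticosteroid enzymes Cyp11b3 and Cyp11b2 gave -2.02 ± 0.70 and -2.47 ± 0.99 (limma, adjusted p = 0.470 for both). The brighter values of these genes came from ovary vehicle arrays 1 and 3, the pair with the narrow signal range. The median difference of all features was -0.23 in ovary, and 0.09 after quantile normalization, while that of the 32 members was -0.52 and 0.14. Without ovary vehicle array 2, which leaves the narrow pair as the vehicle group, 9 members were called, all lower. In all 8168 features were called there, 8087 of them lower. Without the pair itself no member was called, and Cyp1a2 had too few arrays above background to be tested.

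In skin no member passed either (0 of 26, with 0% of 25731 features higher and 0% lower), and 2 had an unadjusted p under 0.05, against 4.95% of all features. Cyp2b12, an arachidonate epoxygenase known from sebaceous glands, measured -3.26, -3.73 and -4.04 with vehicle and -1.48, -2.77 and -1.51 with DHT, with no overlap (1.76 ± 0.43, limma adjusted p = 0.755). Cyp1a1, the inducible hydroxylase of aromatic hydrocarbons, measured -0.82, -1.55 and -2.68 with vehicle and -3.10, -6.08 and -3.06 with DHT, with no overlap (-2.39 ± 0.90, limma adjusted p = 0.755). Cyp3a9 measured -0.19, -1.27 and -3.08 with vehicle and -1.69, -2.35 and -1.29 with DHT, a wide overlap (-0.27 ± 0.73, limma adjusted p = 0.928). Cyp4a8 was well above background on vehicle array 1 alone (-3.24) and was not tested.

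The sterol hydroxylase Cyp8b1 (1.48 ± 0.91), Cyp4a2 (0.73 ± 0.46) and the CYP2D form Cyp2d5 (-1.48 ± 1.04) were the next by p in skin, with groups that overlapped. Of the 5 CYP4 members tested in skin 3 had positive differences, as had 13829 of all 25731 features. The median of all 26 members was 0.27, against 0.05 over all features. Tissue make-up varied widely between skin arrays. The summed level of 7 skeletal muscle markers was 5.83 to 6958 times the 75th percentile on vehicle arrays and 1149 to 19064 times on DHT arrays, and that of 5 hair follicle markers was 120 to 335 and 1.15 to 188 times. That of 4 sebocyte markers was 32.4 to 41.1 with vehicle and 14.5 to 31.7 with DHT, with 0 of 4 differences positive, while the sebaceous gene Cyp2b12 had a positive one. None of these markers passed, and their part in the skin values was not tested.

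In forebrain no member passed (0 of 25, with 0% of 28083 features higher and 0% lower; limma, smallest adjusted p = 0.0709). At an unadjusted p under 0.05, 12 of 25 members differed, 2 higher and 10 lower, against 27.6% of all features. The 2 higher were Cyp11b2, aldosterone synthase in the adrenal cortex, and Cyp26a1, which clears retinoic acid. Cyp11b2 measured -4.41 on both vehicle arrays and -2.93, -3.14 and -3.30 with DHT (1.29 ± 0.15, limma adjusted p = 0.0709). Cyp26a1 measured -2.07 and -2.28 with vehicle and -1.34, -1.38 and -0.74 with DHT (1.02 ± 0.24, limma adjusted p = 0.0860). Neither gene's groups overlapped. With the excluded vehicle array put back the differences were 0.08 for Cyp11b2 and 0.67 for Cyp26a1 (limma, adjusted p = 0.967 and 0.628), and under normexp that of Cyp11b2 was 0.25 (adjusted p = 0.383).

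All 6 CYP4 members tested in forebrain had negative differences, as had 14384 of all 28083 features. The CYP4 median was -0.58, against -0.01 over all features. The leukotriene and arachidonate hydroxylases Cyp4f1 and Cyp4f4 gave -0.61 ± 0.12 and -0.59 ± 0.14 (limma, adjusted p = 0.0754 and 0.0865). Cyp4f1 measured 1.99 and 1.88 with vehicle and 1.27, 1.34 and 1.36 with DHT. Cyp4f4 measured 2.40 and 2.30 with vehicle and 1.61, 1.77 and 1.88 with DHT, so that neither overlapped. Without vehicle array 1, DHT array 2 or DHT array 3, 1 of the 6 CYP4 values turned positive. With forebrain vehicle array 3 put back, the differences of Cyp4f1 and Cyp4f4 were -0.00091 and 0.01 (limma, smaller adjusted p = 0.993).

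Cyp2c11, the male form of hepatic steroid hydroxylase, measured -4.79 and -5.05 with vehicle and -5.91, -6.08 and -6.24 with DHT in forebrain (-1.16 ± 0.16, limma adjusted p = 0.0709), and 1 of 3 DHT arrays was well above background. Its difference was -0.73 under normexp (limma, adjusted p = 0.0800) and -2.33 with the excluded array put back (adjusted p = 0.628). Cyp3a9 measured -1.46 and -1.79 with vehicle and -1.89, -2.10 and -2.24 with DHT (-0.45 ± 0.18, limma adjusted p = 0.178). Cyp4a8 was well above background on 1 vehicle and 1 DHT array (-3.65 and -5.88) and was not tested. Choroid plexus markers differed between the forebrain groups: the summed level of the 3 tested was 30.8 to 155 times the 75th percentile with vehicle and 0.43 to 0.60 times with DHT, with a median difference of -3.35. The summed level of 7 skeletal muscle markers was 7.29 to 7.39 with vehicle and 1.03 to 1.49 with DHT, and that of 6 astrocyte markers was 106 to 120 and 70.3 to 80.1. The 7 neuron markers had positive differences and a summed level of 87.2 to 101 with vehicle and 123.3 to 129 with DHT, while macrophage markers (16.8 to 18.8 and 12.7 to 13.0) and endothelium markers (14.0 to 14.2 and 7.46 to 8.70) summed to less with DHT. No marker of these lists passed, and their part in the member values was not tested.

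**Figure D2:**
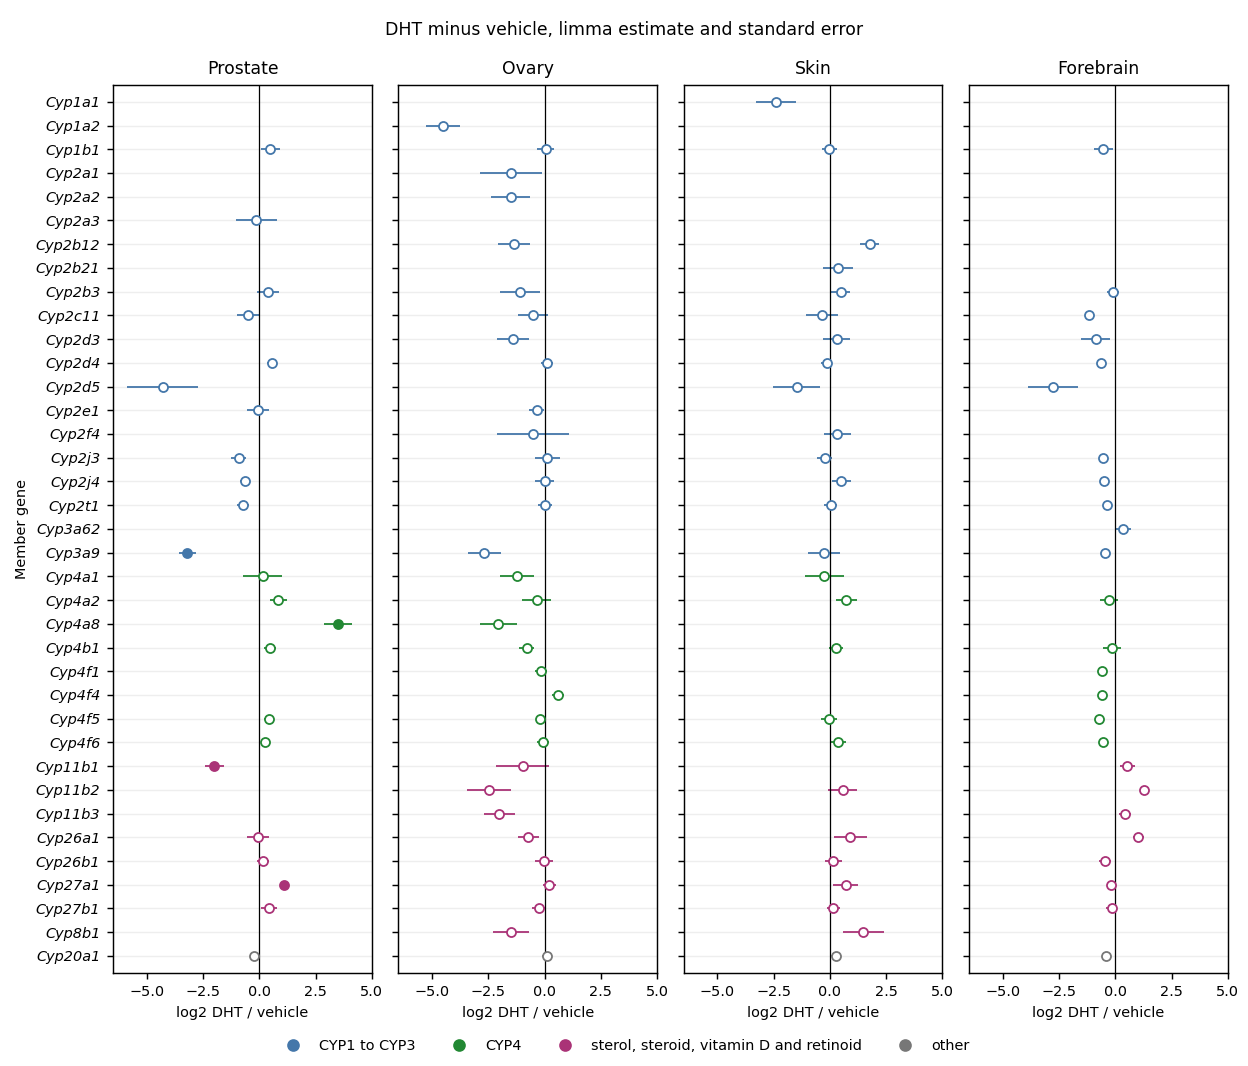
DHT minus vehicle difference (horizontal axis, log2) of every member tested in prostate, ovary, skin and forebrain, coloured by family, with limma standard errors as bars and filled points for an adjusted p under 0.05. The 4 filled points are in prostate, where all 6 CYP4 values lie above 0 (4 of 6 under normexp), while all 6 in forebrain lie below it (5 of 6 without vehicle array 1, DHT array 2 or DHT array 3). Over all features, 13936 of 25277 lie above 0 in prostate and 14384 of 28083 below it in forebrain.

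The effect of DHT was compared between tissues for the 17 members that were well above background on 3 or more arrays of every tissue. None passed (0 of 17, limma moderated F test), against 4.82% of 22111 features, and 6 had an unadjusted p under 0.05, against 26.8% of all. The smallest adjusted p-values were 0.0734 for Cyp2d4, the main CYP2D form of rat brain, and 0.0771 for Cyp3a9. For Cyp3a9 the prostate difference minus the skin difference was -2.94 ± 0.87 (limma, adjusted p = 0.0586), minus the forebrain difference -2.76 ± 0.93 (adjusted p = 0.111), and minus the ovary difference -0.53 ± 0.87 (adjusted p = 0.810). Cyp3a9 passed the F test without skin vehicle array 1 (adjusted p = 0.0338) and without ovary vehicle array 2 (adjusted p = 0.0149). Cyp2d4 passed without ovary vehicle array 2 (adjusted p = 0.0405) or array 3 (adjusted p = 0.0451). Leaving out ovary vehicle array 2 made the narrow pair the whole vehicle group of ovary, which limits what the passes of both genes show.

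Cyp4a8 could not enter that fit, since it was dim in skin and forebrain. With features kept if they were well above background on 3 or more arrays of at least 1 tissue, it passed (limma, adjusted p = 0.0376). That fit also drew on vehicle ovaries, where Cyp4a8 was brighter on the narrow pair (-3.64 and -3.03) than on array 2 (-5.98). In skin Cyp4a8 was well above background on 1 array, and in forebrain on 1 vehicle and 1 DHT array. Cyp1a2 also fell under the threshold (adjusted p = 0.0461), but it met this filter through the vehicle ovaries alone, where it was high, and its values in the other tissues were at background on all but 1 array. The other members of the CYP4 family in the fit did not pass. Cyp4f5 gave 0.44 ± 0.23 in prostate and -0.72 ± 0.19 in forebrain, and the difference between them was 1.15 ± 0.35 (limma, adjusted p = 0.0757).

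Levels on vehicle arrays differed between tissues for 25 of 37 members (limma moderated F test, adjusted p under 0.05), against 81.5% of 33150 features. In all, 12 members were higher in 1 tissue than in each of the other 3: 5 in forebrain (background 11%), 3 in ovary (7.09%), 2 in skin (10.5%) and 2 in prostate (7.49%). At the other end, 6 members were lowest in 1 tissue, against 29.1% of all features: Cyp3a9 in ovary, Cyp20a1 in skin, Cyp2e1 and Cyp2j4 in forebrain, and Cyp4f1 and Cyp4f5 in prostate.

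In forebrain the members called highest were Cyp11b1, Cyp4f4, Cyp4f1, Cyp2d4 and Cyp2j3. Cyp11b1 measured 1.56 and 0.58 on vehicle and 1.73, 1.74 and 1.35 on DHT arrays of forebrain, against -4.21 or less on prostate arrays and -3.38 or less on ovary arrays, and it was not well above background on any skin array. Its distance to prostate, the next tissue, was 5.45 ± 1.04 (limma, adjusted p = 0.000256). Cyp4f4 was 5.07 ± 0.88 and Cyp4f1 3.10 ± 0.75 above ovary (limma, adjusted p = 0.000180 and 0.00237). Neither was well above background on any prostate array, and in skin both were so on vehicle array 2 alone (-2.17 and -2.46). Cyp2d4 measured 1.81 and 1.47, against -0.31 or less on every vehicle array of the other tissues, a distance of 2.30 ± 0.22. Cyp2j3 was 1.69 ± 0.46 above ovary (limma, adjusted p = 0.00566), and without forebrain vehicle array 1 the adjusted p was 0.0539.

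In skin Cyp1a1 and Cyp2b21, a CYP2B form, were called highest. Cyp1a1 on vehicle arrays lay 4.50 ± 0.88 above prostate (limma, adjusted p = 0.000370), where 1 of 3 vehicle arrays was well above background, and it was at background in ovary and forebrain. Cyp2b21 measured -1.25, -2.75 and -3.89 with vehicle and -2.34, -2.68 and -1.81 with DHT in skin, 3.48 ± 0.67 above ovary on vehicle arrays (limma, adjusted p = 0.000357). Both genes are members through skin alone, so that a high level there was favoured by the rule. A second Cyp2b21 probe, no member, went against this order: it was well above background on 1 of 6 skin arrays (-3.71) and on ovary vehicle arrays 1 and 3 (-2.62 and -1.83), with vehicle means of -5.30 in skin and -4.13 in ovary. The retinoic acid hydroxylase Cyp26b1 was high in skin (2.83, 2.32 and 1.54 with vehicle) and in forebrain (1.90 and 1.40), and these neighbours differed by 0.60 ± 0.40 (limma adjusted p = 0.208), while prostate and ovary lay between -2.44 and -0.76. Cyp1b1, which oxidises oestrogens, differed by 0.10 ± 0.40 between skin and ovary on its brighter probe (limma, adjusted p = 0.852) and was lower in forebrain and prostate. Its other member probe gave vehicle means of -1.64 ± 0.32 in skin and -3.05 ± 1.39 in ovary (SD, n = 3 each), with no overlap between the arrays, so that the probes disagree on these neighbours.

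In ovary Cyp2e1, the ethanol oxidase, measured -1.05, -1.88 and -1.19 with vehicle and -1.58, -2.14 and -1.46 with DHT. It lay 3.33 ± 0.70 above skin (limma, adjusted p = 0.000844), and no forebrain array reached well above background. Under normexp the distance was 0.42 (adjusted p = 0.434). Cyp4b1, a hydroxylase of fatty acids and foreign compounds, lay 1.20 ± 0.33 above skin in vehicle ovaries (limma, adjusted p = 0.00584). Without ovary vehicle arrays 1 and 3 its distance was 0.78 (adjusted p = 0.197), under normexp 0.67 (adjusted p = 0.0843) and between DHT groups 0.11 (adjusted p = 0.781). Cyp1a2 was called highest in ovary, at least 2.62-fold above prostate, where no vehicle array was well above background. It is a member only through those vehicle arrays, so that its place was fixed by the rule and is a description. Between DHT groups no ovary array was well above background, and under normexp the distance turned to -1.17.

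In prostate Cyp27a1 lay 0.98 ± 0.36 above ovary (limma, adjusted p = 0.0365), and the order ran on to skin and forebrain, where neighbours differed by 0.64 ± 0.40 (adjusted p = 0.189). The call over ovary was lost in 11 of 21 alternatives, and without prostate vehicle array 1, 2 or 3 the adjusted p was 0.0791, 0.0513 and 0.112, and without ovary vehicle array 2 or 3 it was 0.107 and 0.0564. Cyp2t1 measured 1.31, 1.01 and 1.94 in vehicle prostates and lay 1.25 ± 0.26 above ovary (limma, adjusted p = 0.00112). Between DHT groups its distance was 0.51 (adjusted p = 0.153), and it was not called.

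**Figure D3:**
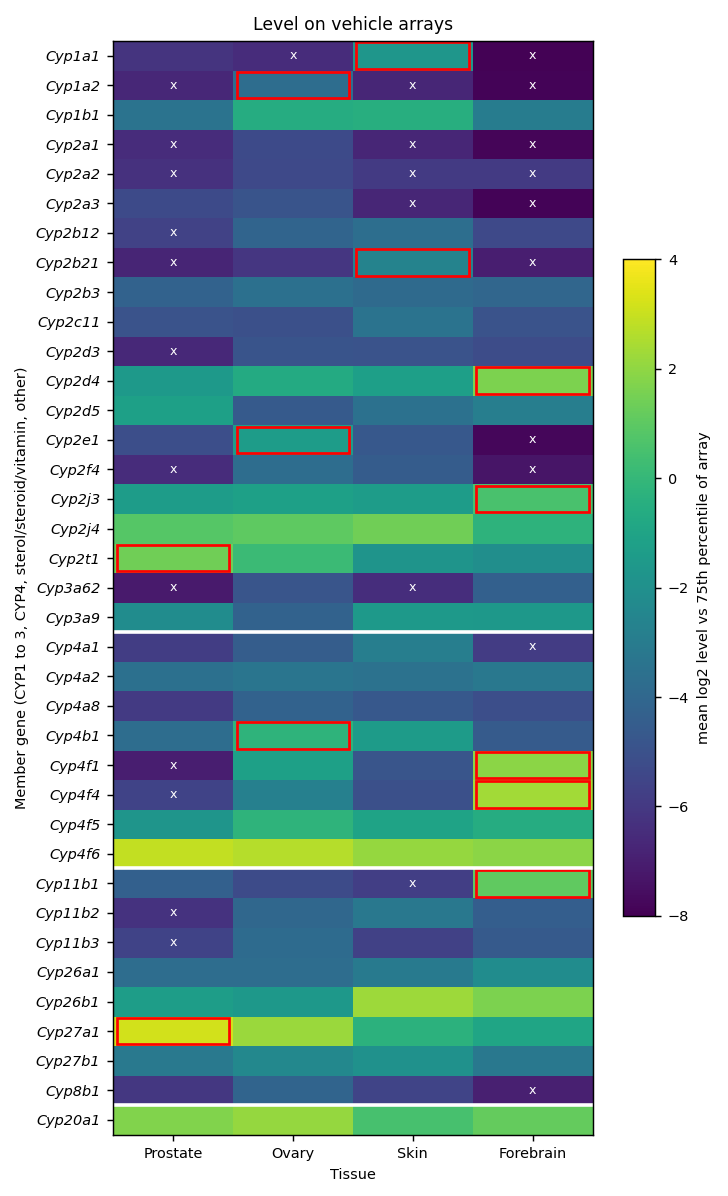
Mean level of each member (rows, by family) on the vehicle arrays of the 4 tissues (columns), as log2 relative to the 75th percentile of the array. A cross marks a group with no array well above background and a red frame a tissue called highest. Colours compare tissues along a row, not genes, and 5 of the 12 frames are in forebrain.

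For Cyp3a9 the order on vehicle arrays was skin (-1.51 ± 1.46, SD, n = 3), forebrain (-1.62 ± 0.23, n = 2), prostate (-2.17 ± 0.48, n = 3) and ovary (-4.22 ± 1.23, n = 3). Skin and forebrain differed by 0.11 ± 0.72 (limma, adjusted p = 0.906) and forebrain and prostate did not differ beyond their spread (adjusted p = 0.554), while ovary was lower than each of the others (adjusted p = 0.0157 against prostate). For Cyp4a8 no neighbour in the order ovary (-4.22), skin (-4.70), forebrain (-5.13) and prostate (-5.95) differed beyond its spread (limma, adjusted p of 0.646, 0.749 and 0.458). In the DHT groups, where prostate stood at -2.47 ± 0.37 (SD, n = 3), Cyp4a8 was called highest in prostate. In all, 19 members were called highest in 1 tissue among the DHT groups, against 44.2% of all features, and 9 of these were called in the same tissue on vehicle arrays.

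Cyp2d5 gave a pattern that did not follow the groups, noticed after its values were seen. On vehicle arrays it was well above background in all 3 male tissues, at -0.98, -1.08 and -1.55 in prostate, -3.21, -3.21 and -4.08 in skin, and -2.48 and -3.26 in forebrain. With DHT, it was well above background on array 3 of each of these tissues (-1.61, -2.57 and -3.48) and on neither array 1 nor array 2 (-8.06 and -6.85 in prostate, -5.41 and -6.96 in skin, -6.23 and -7.24 in forebrain). The fitted DHT differences were -4.30 ± 1.56 in prostate (limma, adjusted p = 0.138) and -2.78 ± 1.12 in forebrain (adjusted p = 0.187). In prostate it passed without DHT array 3 (-6.25, adjusted p = 0.0173). In ovary Cyp2d5 was well above background on vehicle arrays 1 and 3 (-3.66 and -2.24) and on no DHT array (-8.83, -6.67 and -6.88). Ovary DHT array 3 lay on the same slide as DHT array 3 of the male tissues. The labels do not say whether arrays of the same number came from 1 rat. Arrays 1, 2 and 3 of the DHT groups also lay on 1 slide each, so that animal and slide cannot be told apart in the male tissues, and neither was tested.

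**Figure D4:**
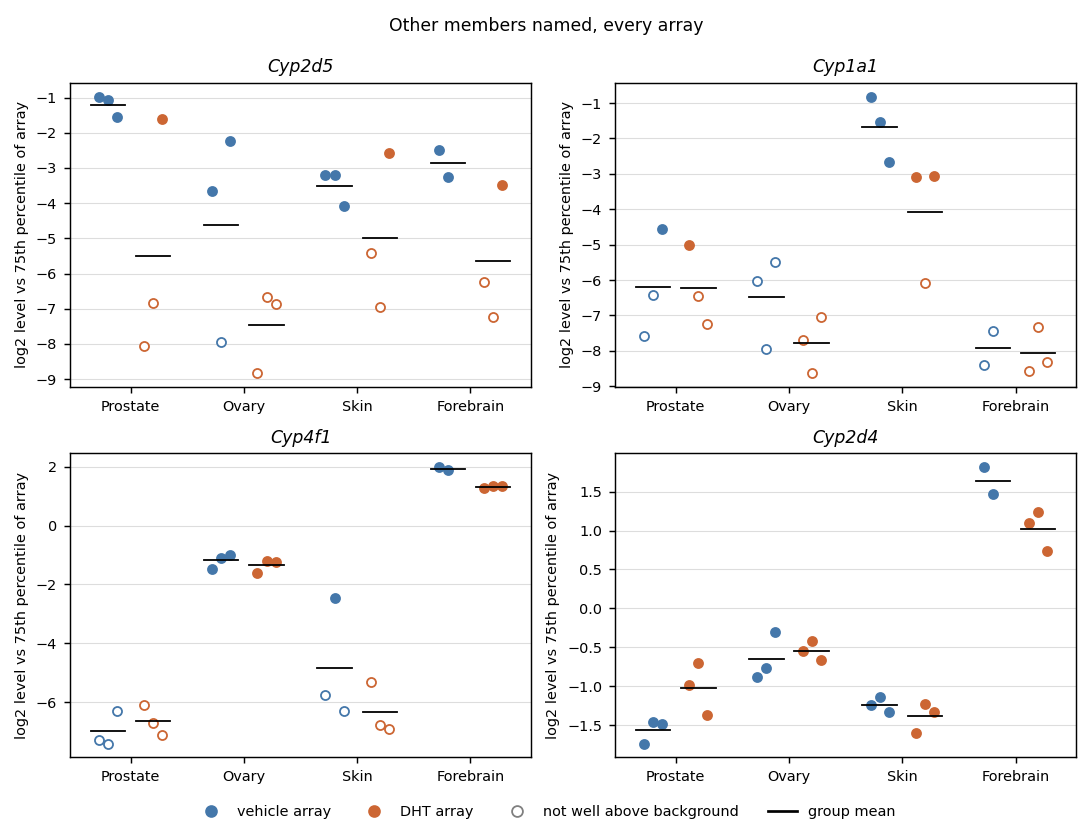
Level of Cyp2d5, Cyp1a1, Cyp4f1 and Cyp2d4 (vertical axis, log2 relative to the 75th percentile of the array) on each array of the 4 tissues, with open points not well above background and bars at group means. In the DHT groups of prostate, skin and forebrain Cyp2d5 has 1 filled point, array 3, beside 2 open ones.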

How the data were processed

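Each deposited file held 1 array, as linear spot intensity from the scanner software (per the file headers, Feature Extraction version 10.5.1.1; 10.1 per the submitters' processing notes, which also name limma). The processed signal was background-subtracted by the scanner software, per the file headers, and not normalized between arrays. Control spots (1417 of 42429) and outlier spots were left out, and no spot was saturated. Accessions gave a symbol for 10813 of 41012 probes through a GRCr8 RefSeq table, used for names and promoters. The 75th percentile of each array was subtracted from the log2 signal. Separate limma models (version 3.58.1, R 4.3.3; lmFit and eBayes) compared DHT with vehicle per tissue on features well above background on 3 or more arrays, with the brightest probe per gene, Benjamini-Hochberg adjustment over all features and a threshold of 0.05. Fits over all tissues had slide as a random block (correlation 0.100 for DHT, 0.0931 for tissues). Only the prostate fit was tried on simulated arrays, with independent noise and no background floor, filter on dim probes or slide effect. That trial therefore cannot speak for members near background. The number of arrays limits the precision.

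A level "at least N-fold" lower sets the bright group's mean against, per array of the dim group, the higher of the dimmest signal well above background and the probe's own. Named were Cyp4a8, Cyp3a9, members past the threshold, the 5 smallest p per tissue, the 5 called highest per tissue, partner genes past the threshold, and other probes of these genes. Levels of other members were added to show the range within families. The members and lists were chosen with earlier results of these data known. The normexp alternative used median instead of mean spot signals. Within a tissue, the deviations of same-numbered vehicle and DHT arrays had a correlation between -0.43 and 0.01, and they were not treated as pairs. Pairing across tissues was not tested.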

Additional observations from a re-analysis of the deposited data

Results flagged for a closer look

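Flagged were 3 members. A member in the comparison between tissues was flagged if its DHT effect differed between prostate and another tissue by a test. A member outside that comparison was flagged if its effects in a pair of tissues lay on opposite sides of 0. For these, the groups also had to be without overlap in either tissue. The share of all features that meet either condition was not counted, so that the number of members is a description only. For Cyp2d4 the effect in prostate (0.55 ± 0.21) and in forebrain (-0.62 ± 0.21) differed by 1.18 ± 0.29 (limma contrast over all features, adjusted p = 0.0322), although the F test over all tissues gave an adjusted p of 0.0734. All 3 prostate DHT arrays lay above all 3 vehicle arrays, and all 3 forebrain DHT arrays lay below both vehicle arrays. Cyp2b12 had a difference of 1.76 in skin and of -1.35 in ovary. In ovary, vehicle array 2 had no value, so that the vehicle group was arrays 1 and 3 alone (-4.52 and -3.72), the pair with the narrow signal range. Neither DHT effect passed (limma, adjusted p = 0.755 and 0.508), and the difference between these effects was not tested. Cyp4f4 gave 0.58 in ovary and -0.59 in forebrain, and neither passed (limma, adjusted p = 0.473 and 0.0865). This difference was not tested either. Cyp27a1 was in the comparison and was not flagged, but its groups lay apart in opposite directions in prostate (1.09) and forebrain (-0.18). Its effects in these tissues differed by 1.29 ± 0.52 (limma contrast, adjusted p = 0.182).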

How the results depend on the processing

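The count of members called with DHT in prostate was 4, and it was 1 under normexp (Cyp3a9), 2 without a filter on dim probes (Cyp3a9 and Cyp2f4), 1 with probes well above background on every array (Cyp27a1), 7 with array weights, 2 in 1 fit over all tissues, and 1 to 5 with 1 array left out. It was 1 without prostate vehicle array 1 or 2 or DHT array 2, in each case Cyp3a9. With quantile normalization 2 were higher and 1 lower, in place of 2 and 2. With the replicate number as a block it was 1 (Cyp3a9), and all features called fell to 48 from 2449, a block without basis in the samples, and it left the counts of members called with DHT in the other tissues at 0. With the 75th percentile taken over probes well above background on all arrays, 1171 features were higher and 1510 lower, in place of 1292 and 1157. In ovary the count of 0 became 1 with quantile normalization or with 1 fit over all tissues (Cyp1a2 in both), and it ranged from 0 to 9 with 1 array left out. In forebrain it became 2 with probes well above background on every array (Cyp11b2 and Cyp4f1). In skin it was 0 throughout. The count of members whose DHT effect differed between tissues was 2 with the wider filter and 0 to 2 with 1 array left out. Among 12 members highest in 1 tissue the count was 19 between DHT groups and 10 to 14 otherwise. Reversed values were Cyp2d5 in skin (0.045 under normexp), Cyp4f4 in forebrain (0.010 with vehicle array 3), Cyp3a9 in skin (-1.05 to 0.39 with 1 array left out) and the distance of Cyp1a2 between ovary and the next tissue (-1.17 under normexp, -2.20 between DHT groups). Where a call changed, the cause was not tested. Of the other values of named members, 491 kept their direction and side of the threshold, 44 no longer passed and 9 passed in addition. Members near background, such as Cyp4a8, Cyp11b1 and Cyp1a2, are limited by signal. Where 1 vehicle array was left, it was assumed to vary like the other group.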
